A study of Homo sapiens with 34 samples.

Results

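ESI017 cells, an established line of human embryonic stem cells of wild-type genotype, can be brought to endoderm medium from different first days. The libraries described here are the 2 of APS-DE(b), cells that passed through an anterior primitive streak day, and the 2 of DE(a)-DE(b), the standard route to definitive endoderm, taken by their labels from 34 libraries of 17 conditions. For DE(a)-DE(b), the first 24 h were spent in activin A at 100 ng/ml and CHIR99021 at 2 µM, an inhibitor of GSK3 that turns on Wnt signaling. For APS-DE(b), the first 24 h were spent in activin A at 30 ng/ml, bFGF at 20 ng/ml and CHIR99021 at 4 µM. All 4 cultures then had the same DE(b) medium, 100 ng/ml activin A with 250 nM LDN-193189, a blocker of BMP receptors, and were harvested at 48 h. The routes thus differed in activin dose, CHIR99021 dose and bFGF together, and these agents cannot be told apart in this comparison. Cells of the same first days harvested at 24 h, cells moved on day 2 to PM (paraxial mesoderm) or LM (lateral mesoderm) medium, and an undifferentiated control were used beside them. By the study's methods, PM medium held A-8301 at 1 µM, bFGF at 20 ng/ml and LDN-193189 at 250 nM. Elsewhere the study also describes CHIR99021 in its standard PM treatment, which those methods leave out. LM medium held A-8301 at 1 µM, BMP4 at 30 ng/ml and IWP2 at 4 µM.

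The primitive streak is where epiblast cells leave an epithelium and become mesoderm or endoderm. High Nodal or activin signaling favors endoderm, whereas Wnt, FGF and BMP signals favor mesoderm of more posterior identity. Epithelial cells hold together through cadherins, claudins and EpCAM, under transcription factors of the Grainyhead family, and ZEB factors bind E-box sequences and repress many of these genes.

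The 4 libraries held between 17201623 and 20308179 estimated counts. Values are given as CPM, the usual scaling of counts to the total of a library, without scaling to gene length, so levels were not compared between genes. Mitochondrially encoded genes took 9.28% of the counts in DE(a)-DE(b) replicate 2, the highest share of the 34 libraries, and 4.74% to 5.15% in the other 3. The study calls the libraries of a condition biological replicates, and the sources used here do not say whether they were separate cultures. P-values thus measure only the spread between libraries of a condition, which may be technical. In the main fit that spread was estimated over all 34 libraries and not from the 4 compared alone. Replicate 1 and replicate 2 of every condition were deposited in separate tables. In bulk RNA, fewer cells of a type and less RNA per cell cannot be told apart.

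Endoderm markers were present in both groups. SOX17, an endoderm transcription factor, was at 330.0 and 440.0 CPM in DE(a)-DE(b) and at 401 and 518 CPM in APS-DE(b), against 0.0452 and 0 CPM in the control. CER1, a secreted Nodal and BMP antagonist, was at 4300.0 and 3890.0 CPM in DE(a)-DE(b) and at 4920.0 and 4570.0 CPM in APS-DE(b). GATA6 lay between 465 and 761 CPM in the 4 libraries. Other markers were lower in APS-DE(b) without overlap, but did not pass the test described next. FOXA2 was at 86.0 and 125 CPM against 52.9 and 79.1 CPM, HHEX was at 62.5 and 84.1 CPM against 43.2 and 55.7 CPM, and FOXA1 was at 5.18 and 7.15 CPM against 0.993 and 1.28 CPM (adjusted p of 0.904, 0.789 and 0.534, edgeR). Of the 19 endoderm genes tested, 9 had a log2 fold change above 0 and 10 below. Of lists of 10 markers of other cell types, 4 of blood and endothelium (TAL1, GFI1B, HBE1 and ERG), 5 of neural progenitors (SOX1, NEUROG2, OLIG2, PAX3 and HES5) and 3 of amnion (TFAP2A, TFAP2B and VTCN1) were at or under 3 counts in all 4 libraries. Other members were detected, among them TEK between 7.79 and 11.0 CPM, RUNX1 between 2.70 and 4.48 CPM, NES between 353 and 451 CPM and TFAP2C between 13.0 and 20.0 CPM. GATA3 was at 1.68 and 1.86 CPM in DE(a)-DE(b) and at 0.827 and 0.543 CPM in APS-DE(b), and SIX3 was at 6.25 and 10.7 CPM against 2.26 and 1.97 CPM. The summed level of the blood and endothelium list was 14 to 18.3 CPM in DE(a)-DE(b) and 16.2 to 18.1 CPM in APS-DE(b), that of the amnion list was 19.3 to 23.7 CPM and 23.6 CPM, and that of the neural list was 421 to 468 CPM and 358 to 383 CPM. Their part in the results was not tested.

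A gene was called when edgeR's quasi-likelihood test gave a Benjamini-Hochberg adjusted p under 0.05 over the 17895 genes tested. In APS-DE(b) against DE(a)-DE(b), 84 genes were called (0.469%). Of these, 35 were higher (0.196%) and 49 were lower (0.274%) in APS-DE(b). The count was 14 without APS-DE(b) replicate 2, 16 and 21 without DE(a)-DE(b) replicate 2 and replicate 1, and 38 without APS-DE(b) replicate 1, and 43 of the 84 genes were called in none of these 4 fits. With mitochondrial genes left out, 86 genes were called, 82 of the 84 among them, and with the replicate number as a block 138 genes were called. Fitted on the 4 libraries alone, edgeR called 0 genes, with 1196 at an unadjusted p under 0.05, and DESeq2 on all libraries called 246. The median log2 fold change was 1.74 among the genes called higher and -1.37 among those called lower, against -0.007 over all genes tested. The higher libraries lay above the lower ones without overlap for all 84 genes, as they did for 35.6% of all genes tested. The Euclidean distance between libraries on log2(CPM + 1), over 14647 genes, averaged 59.3 between the groups, against 46.3 between the APS-DE(b) replicates and 62.1 between the DE(a)-DE(b) replicates. On average, the libraries of the 2 groups were thus further apart than the APS-DE(b) replicates and no further apart than the DE(a)-DE(b) replicates. The latter pair holds the library of the high mitochondrial share. The median distance between replicates over the 17 conditions was 54.6.

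**Figure D1:**
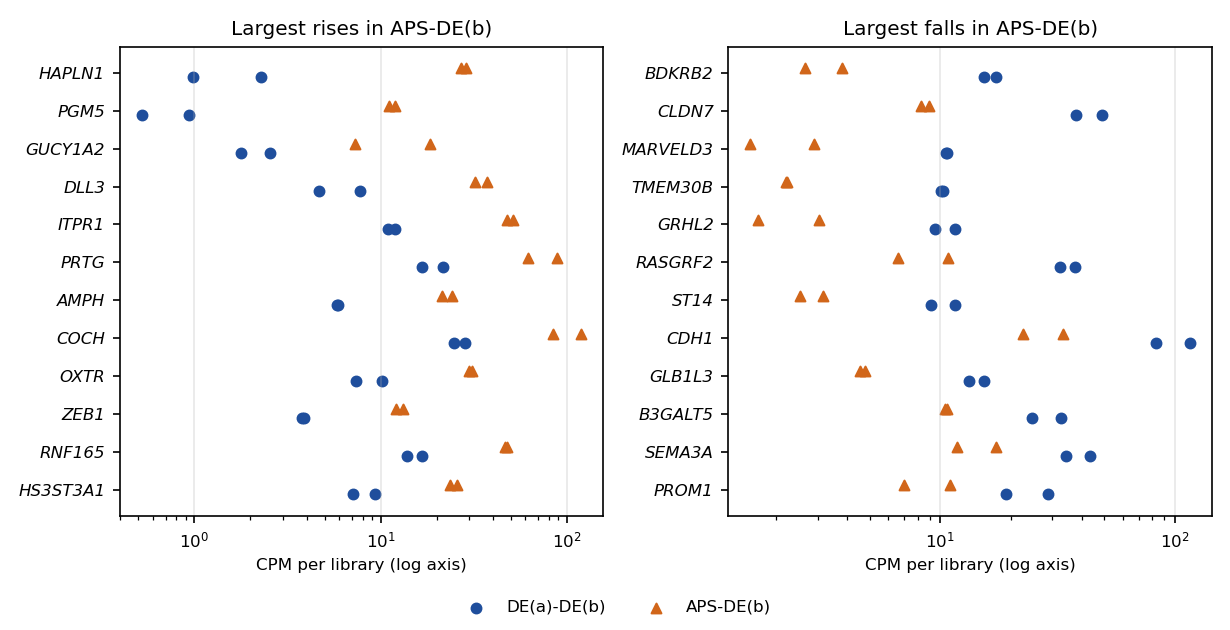
CPM of each library (log axis) for 12 large rises and 12 large falls in APS-DE(b), the largest log2 changes among called genes with at least 10 CPM in a group. Circles are the 2 DE(a)-DE(b) libraries and triangles the 2 APS-DE(b) libraries. The 2 groups do not overlap for any of the 24 genes, which the choice of genes required.

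Several of the largest falls were in genes of epithelial cells. Of the 20 genes on a list of epithelial markers, 6 fell in APS-DE(b) (CDH1, CDH3, EPCAM, CLDN7, GRHL2 and ST14) and none rose, against 0.274% of all genes called lower. Of the list, 17 genes had a log2 fold change below 0, with a median of -0.76. With DESeq2 7 members were called and with voom 6.

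CLDN7 (chr17:7259903-7263983, GRCh38), which encodes a claudin of tight junctions, was at 48.9 and 37.8 CPM in DE(a)-DE(b) and at 8.97 and 8.26 CPM in APS-DE(b). Every APS-DE(b) library lay well under every DE(a)-DE(b) library. The log2 fold change was -2.32 ± 0.30 (SE, 2 libraries compared with 2, edgeR adjusted p = 0.00105), a 5.03-fold lower mean. Here and below, the SE comes from the fit over all 34 libraries and is not the spread of the 4 compared. CLDN7 was one of 3 genes, with COCH and HS3ST3A1, that remained called when any of the 4 libraries was left out.

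EPCAM (chr2:47345158-47387601), the epithelial adhesion molecule, was at 174 and 159 CPM in DE(a)-DE(b) and at 65.1 and 66.7 CPM in APS-DE(b), and its log2 fold change was -1.33 ± 0.27 (SE, edgeR adjusted p = 0.0203). CDH1 (E-cadherin, chr16:68737292-68835537) was at 116 and 83.4 CPM against 33.3 and 22.5 CPM, and the neighboring CDH3 (P-cadherin) was at 115 and 99.6 CPM against 50.8 and 39.0 CPM. All 3 adhesion genes were 2.39-fold to 3.56-fold lower in APS-DE(b), and the groups did not overlap. CDH1 was not called without APS-DE(b) replicate 2 (adjusted p = 0.116, edgeR), and EPCAM was not called in any fit that left a library out. CDH3 was not called without APS-DE(b) replicate 2 (adjusted p = 0.171) or without DE(a)-DE(b) replicate 1 (adjusted p = 0.053, edgeR). GRHL2, ST14 and MARVELD3, given next, were likewise not called in any of those fits.

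The transcription factor gene GRHL2, a Grainyhead factor that activates epithelial junction genes, was at 11.6 and 9.53 CPM in DE(a)-DE(b) and at 3.03 and 1.68 CPM in APS-DE(b). ST14, a membrane-bound serine protease of epithelia, was at 11.6 and 9.16 CPM against 3.15 and 2.52 CPM. MARVELD3, another tight junction component, was at 10.6 and 10.7 CPM against 2.91 and 1.55 CPM. These 3 genes were expressed at a low level on the standard route, and each was 3.65-fold to 4.78-fold lower after APS.

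Epithelial genes outside the list were also among the 49 falls, and are named here after their values were seen. AP1M2, an adaptor subunit for sorting to the basolateral membrane, was at 36.8 and 27.4 CPM against 13.3 and 11.7 CPM. PPL, which encodes the desmosomal plaque protein periplakin, was at 39.3 and 41.8 CPM against 17.5 and 17.1 CPM.

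The list did not fall as a whole. The keratin genes KRT8, KRT18 and KRT19 had log2 fold changes of 0.24, 0.08 and -0.21 with adjusted p of 0.910, 0.989 and 0.923 (edgeR). KRT8 was at 1300.0 and 1340.0 CPM in DE(a)-DE(b) and at 1480.0 and 1600.0 CPM in APS-DE(b). The tight junction scaffold TJP1 was at 138 and 106 CPM against 111 and 121 CPM. ESRP1, a splicing regulator of epithelia, was at 169 and 147 CPM against 73.6 and 71.2 CPM, with an adjusted p of 0.0584 (edgeR), just short of the threshold.

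ZEB1 rose in APS-DE(b). It was at 3.86 and 3.78 CPM in DE(a)-DE(b) and at 13.2 and 12.1 CPM in APS-DE(b), with a log2 fold change of 1.74 ± 0.28 (SE, edgeR adjusted p = 0.00403). It was the only gene called by edgeR of the 16 on the list of epithelial-mesenchymal transition and mesenchymal genes, where DESeq2 called 3. Its paralog ZEB2 was at 1.23 and 1.4 CPM against 4.97 and 2.91 CPM (adjusted p = 0.255), and the intermediate filament gene VIM was at 487 and 325 CPM against 934 and 856 CPM (adjusted p = 0.145, edgeR). CDH2 (N-cadherin) lay between 802 and 873 CPM in all 4 libraries, with a log2 fold change of 0.07 (adjusted p = 0.966, edgeR). FN1, fibronectin, was at 843 and 1070.0 CPM against 506 and 592 CPM, a log2 fold change of -0.79 that was not called (adjusted p = 0.338, edgeR). Of this list, 12 genes had a log2 fold change above 0 and 3 below.

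**Figure D2:**
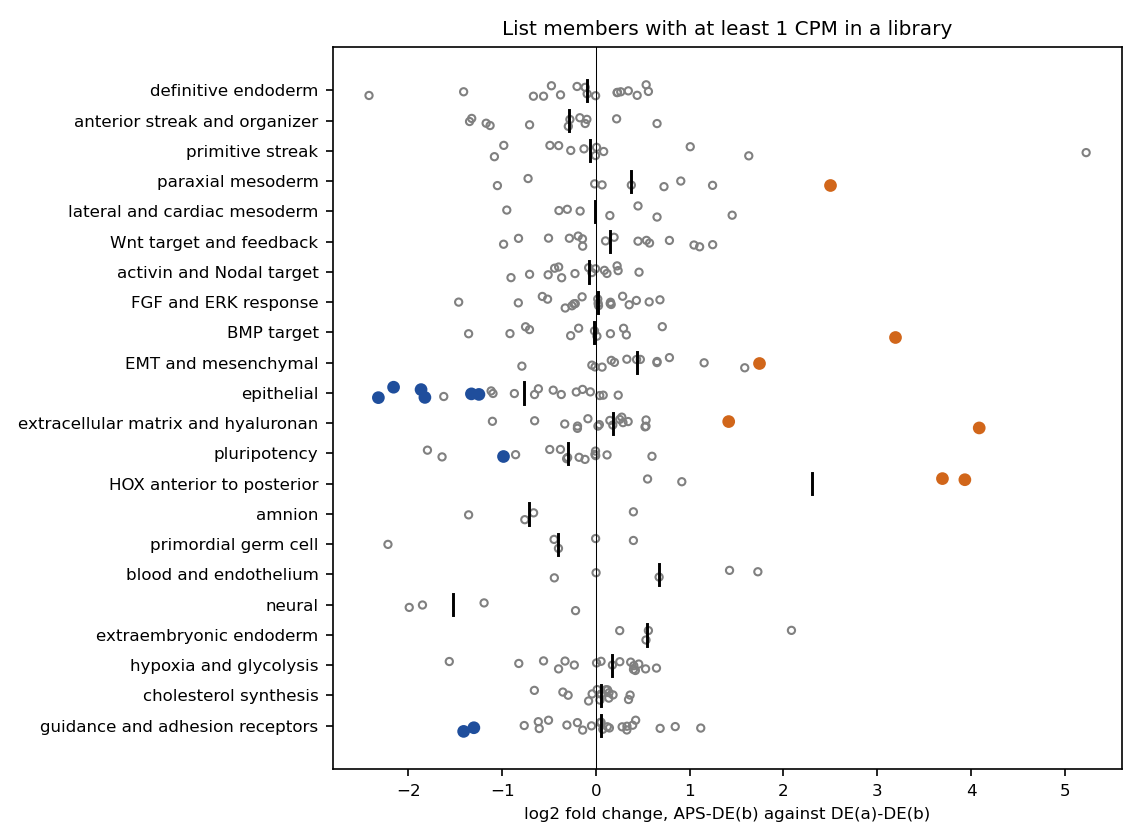
Log2 fold changes in APS-DE(b) against DE(a)-DE(b) for members of 22 gene lists with at least 1 CPM in 1 of the 4 libraries. Filled points are genes called, open points are genes not called and black bars are list medians. The epithelial list holds 6 called genes, all lower, and the definitive endoderm list holds none.

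Because a ZEB gene and epithelial genes moved in opposite directions, promoters were searched for the E-box form CACCTG, or CAGGTG on the other strand, in the 250 bases before the start of each gene in RefSeq (GRCh38.p14). RefSeq promoters were matched by symbol for 36 of the 49 falls and 23 of the 35 rises. CDH1, CLDN7 and EPCAM were among the falls without a match, so their promoters were not searched. The letters were found in 11 of the 36 promoters (30.6%) and in 7 of the 23 (30.4%), against 16.3% of the genes tested that had a promoter and 17.5% of all promoters. The share was thus about equal among falls and rises. A match is a description of letters and not a site of binding. The promoters of 3 of the falls are shown, since they hold the motif near the start of a membrane protein or sorting gene, with the motif in capitals. They lie on the minus strand at chr19:10587313-10587562 (AP1M2), chr4:16084024-16084273 (PROM1) and chr14:61281339-61281588 (TMEM30B).
AP1M2: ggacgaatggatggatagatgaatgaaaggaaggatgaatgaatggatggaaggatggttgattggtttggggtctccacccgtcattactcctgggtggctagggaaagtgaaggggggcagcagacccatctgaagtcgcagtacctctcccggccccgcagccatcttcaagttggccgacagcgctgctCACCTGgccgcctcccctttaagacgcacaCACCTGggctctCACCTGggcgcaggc
PROM1: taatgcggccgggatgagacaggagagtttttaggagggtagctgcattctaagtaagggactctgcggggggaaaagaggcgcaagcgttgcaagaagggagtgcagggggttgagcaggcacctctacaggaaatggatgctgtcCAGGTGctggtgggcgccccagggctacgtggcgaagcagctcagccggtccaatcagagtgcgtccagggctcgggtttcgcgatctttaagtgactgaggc
TMEM30B: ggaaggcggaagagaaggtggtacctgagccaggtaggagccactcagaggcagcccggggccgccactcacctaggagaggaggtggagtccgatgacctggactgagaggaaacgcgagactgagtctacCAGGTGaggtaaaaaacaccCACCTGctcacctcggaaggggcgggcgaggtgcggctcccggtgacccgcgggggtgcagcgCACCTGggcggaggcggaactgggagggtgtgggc
The motif starts 57, 27 and 15 bases before the start of AP1M2, 103 bases before that of PROM1, and 118, 98 and 35 bases before that of TMEM30B. For PROM1 and TMEM30B the RefSeq start lies inside the gene as placed by GENCODE (chr4:15963076-16084378 and chr14:61277370-61281761), so the printed stretch lies within the gene by that annotation. AP1M2 is given above. PROM1, a protein of membrane protrusions, was at 28.8 and 19.0 CPM in DE(a)-DE(b) and at 11.0 and 7.01 CPM in APS-DE(b). TMEM30B, a partner of lipid flippases, was at 10.3 and 10.1 CPM against 2.21 and 2.22 CPM.

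BDKRB2, the bradykinin receptor B2, had the largest fall by the naming rule and was at 15.3 and 17.2 CPM in DE(a)-DE(b) and at 2.66 and 3.80 CPM in APS-DE(b). SEMA6A, a transmembrane semaphorin, was at 326 and 330.0 CPM against 136 and 128 CPM, and SEMA3A, a secreted semaphorin, was at 43.4 and 34.4 CPM against 17.2 and 11.8 CPM. These were the 2 called genes of 24 on the list of guidance and adhesion receptors, and both fell. RASGRF2, an exchange factor for Ras and Rac, was at 32.4 and 37.7 CPM against 10.8 and 6.62 CPM. B3GALT5, a galactosyltransferase, was at 24.6 and 32.8 CPM against 10.5 and 10.7 CPM. GLB1L3 was at 15.4 and 13.2 CPM against 4.56 and 4.79 CPM. All 6 genes were lower in every APS-DE(b) library.

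Of 16 pluripotency genes, POU5F1 was the one called by edgeR, and it fell, while voom called 2. Its symbol covers 4 identifiers in the tables, among which Salmon can split reads, so their sum is given: 449 and 370.0 CPM in DE(a)-DE(b) and 215 and 167 CPM in APS-DE(b). With identifiers of a symbol summed, the log2 fold change was -1.07 ± 0.18 (SE, edgeR adjusted p = 0.00374), and for the single called identifier it was -0.99 (adjusted p = 0.0203), which was not called in any fit that left a library out. Of the list, 14 genes had a log2 fold change below 0, with a median of -0.31. LIN28A was at 1270.0 and 1110.0 CPM against 1280.0 and 1280.0 CPM and DNMT3B at 636 and 593 CPM against 534 and 543 CPM, and neither was called. NANOG was at 104 and 87.1 CPM against 33.4 and 21.1 CPM and SOX2 at 47.3 and 37.9 CPM against 16.9 and 10.2 CPM, without overlap but not called (adjusted p of 0.115 and 0.433, edgeR).

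The largest rise by the naming rule was that of HAPLN1. This gene (chr5:83637805-83720855), which links hyaluronan to proteoglycans, was at 2.29 and 0.988 CPM in DE(a)-DE(b) and at 27.1 and 28.9 CPM in APS-DE(b). Both APS-DE(b) libraries were far above both DE(a)-DE(b) libraries. The log2 fold change was 4.09 ± 0.64 (SE, edgeR adjusted p = 0.00403), a 17.1-fold higher mean. COL1A2, a chain of type I collagen, was at 290.0 and 176 CPM against 712 and 521 CPM. These were the 2 called genes of 20 on the list of extracellular matrix and hyaluronan genes, both higher. The hyaluronan synthase HAS2 was at 461 and 344 CPM against 493 and 392 CPM and was not called.

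PGM5, a protein of adherens-type junctions related to phosphoglucomutase, was at 0.936 and 0.521 CPM in DE(a)-DE(b) and at 11.9 and 11.1 CPM in APS-DE(b). PRTG, protogenin, an immunoglobulin superfamily receptor of early mesoderm and neural tube, was at 16.7 and 21.6 CPM against 61.7 and 88.9 CPM. DLL3, a Notch ligand of presomitic mesoderm, was at 4.66 and 7.79 CPM against 32.2 and 37.2 CPM and was the only gene called by edgeR of 16 paraxial mesoderm genes. These 3 genes were higher in every APS-DE(b) library. PGM5 has close paralogs, so its reads may be shared.

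MSX1, a homeobox gene that responds to BMP, was at 0.740 and 0.698 CPM in DE(a)-DE(b) and at 5.77 and 7.36 CPM in APS-DE(b). It was the only gene called by edgeR of 16 BMP targets. Of that list, 8 genes had a log2 fold change above 0 and 8 below, with a median of -0.002. ID3 was at 22.7 and 11.4 CPM against 25.5 and 17.1 CPM, whereas ID2 was at 14.5 and 11.7 CPM against 7.11 and 6.73 CPM, and neither was called. HOXB2 was at 0.197 and 0.174 CPM against 1.55 and 3.35 CPM, and HOXB3 was at 0.443 and 0.233 CPM against 2.94 and 7.66 CPM. They were the 2 called genes of 18 on the list of HOX genes and their MEIS cofactors, both higher, while 12 of the 18 were at or under 3 counts in all 4 libraries. WNT5A, a Wnt ligand of the posterior streak, was named after its values were seen and was at 7.14 and 4.24 CPM against 14 and 14.9 CPM. With voom, no gene of the HOX and BMP target lists was called.

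COCH, cochlin, a secreted matrix protein, was at 28.5 and 24.9 CPM in DE(a)-DE(b) and at 84.0 and 120.0 CPM in APS-DE(b), and its log2 fold change was 1.95 ± 0.26 (SE, edgeR adjusted p = 0.00134). ITPR1, a calcium release channel, was at 11 and 12 CPM against 47.8 and 51.6 CPM. OXTR, the oxytocin receptor, was at 10.2 and 7.35 CPM against 31.1 and 29.7 CPM. The groups lay well apart for these 3 genes.

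AMPH, amphiphysin, was at 5.92 and 5.83 CPM in DE(a)-DE(b) and at 24.2 and 21.4 CPM in APS-DE(b). RNF165, a ubiquitin ligase, was at 16.6 and 13.9 CPM against 47.9 and 46.6 CPM. GUCY1A2, a subunit of soluble guanylate cyclase, was at 1.77 and 2.56 CPM against 7.29 and 18.5 CPM, and the ratio between its APS-DE(b) libraries was the largest among the 12 largest rises. HS3ST3A1, a heparan sulfate sulfotransferase with near-identical paralogs, was at 7.10 and 9.34 CPM against 23.7 and 25.6 CPM and had the smallest adjusted p of all genes (0.000348, edgeR).

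More abundant genes moved by smaller factors, and 4 are named after their values were seen. PKM, a glycolytic enzyme, was at 1810.0 and 1570.0 CPM in DE(a)-DE(b) and at 2980.0 and 3440.0 CPM in APS-DE(b). LIFR, the receptor of leukemia inhibitory factor, was at 161 and 179 CPM against 409 and 410.0 CPM, and ENC1, an actin-binding protein, was at 291 and 291 CPM against 710.0 and 742 CPM. The chromatin subunit RBBP4 was at 466 and 421 CPM against 715 and 721 CPM. None of the 18 hypoxia and glycolysis genes and none of the 15 cholesterol synthesis genes on lists was called by edgeR, DESeq2 or voom. At an unadjusted p under 0.05 these lists held 2 and 1 genes, against 8.27% of all genes tested.

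By edgeR, no gene was called on the lists of definitive endoderm (19 tested), anterior streak and organizer (14), primitive streak (19), lateral and cardiac mesoderm (16), Wnt targets (16), activin and Nodal targets (16) or FGF and ERK response (20). At an unadjusted p under 0.05 there were 2, 2, 5, 2, 4, 2 and 4 genes in that order, against 8.27% of all genes tested. DESeq2 called 2 primitive streak genes, 1 lateral and cardiac mesoderm gene and 1 activin and Nodal target, and voom called 1 endoderm gene. The median log2 fold change was -0.003 for the endoderm list and -0.29 for the anterior streak list. LEFTY2, a Nodal antagonist, was at 1130.0 and 1400.0 CPM in DE(a)-DE(b) and at 749 and 793 CPM in APS-DE(b), without overlap but not called (adjusted p = 0.615, edgeR). CXCR4, the endoderm surface receptor, was at 168 and 154 CPM against 105 and 125 CPM (adjusted p = 0.884, edgeR). With 2 libraries a group, a p that misses the threshold does not show that levels were equal. By edgeR no gene was called on the amnion, primordial germ cell, blood and endothelium, neural or extraembryonic endoderm lists, with 1, 1, 0, 2 and 3 genes at an unadjusted p under 0.05. DESeq2 called 1 gene of the extraembryonic list and voom 1 of the neural list.

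The cells at 24 h, before DE(b) medium, were compared for the same genes. In APS against DE(a) at 24 h, 131 genes were called (0.732%), 109 higher (0.609%) and 22 lower (0.123%). The count was 38 without DE(a) replicate 1, 60 without APS replicate 2, 81 without DE(a) replicate 2 and 93 without APS replicate 1. Of the 35 genes higher at 48 h, 9 were already called higher at 24 h (HAPLN1, HOXB3, HS3ST3A1, LIX1, MSX1, PGM5, PHC2, PRTG and WNT5A), and their 35 log2 fold changes at 24 h had a median of 0.75. Of the 49 genes lower at 48 h, 1 was already called lower at 24 h, the acyl-CoA dehydrogenase ACADSB, and their log2 fold changes at 24 h had a median of -0.43. The median over all genes tested at 24 h was 0. These 24 h libraries were not used in the choice of the 84 genes, other than through the shared dispersion.

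**Figure D3:**
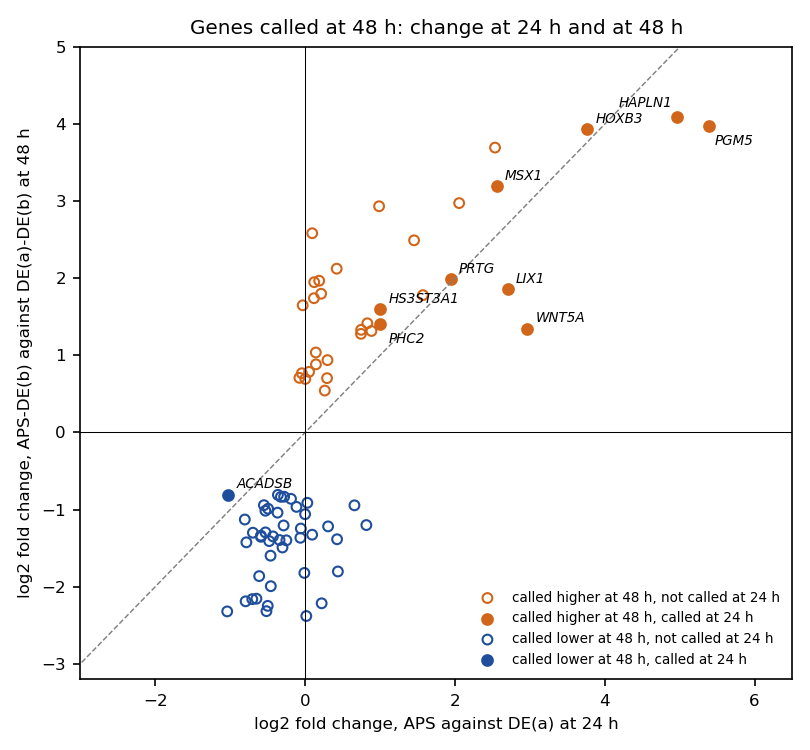
Log2 fold change at 24 h (APS against DE(a)) and at 48 h (APS-DE(b) against DE(a)-DE(b)) for 79 of the 84 genes called at 48 h, leaving out 5 with a group at or under 3 counts per library. The vertical axis does not reach the largest changes, so not every one of the 79 genes is visible. Filled points are also called at 24 h and the dashed line marks equal change. Of the 10 filled points, 9 are genes higher in APS and 1 is lower.

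Levels at 24 h are given here for HAPLN1, MSX1 and PRTG. HAPLN1 was at 70.5 and 59.2 CPM in APS at 24 h, against 0.934 and 3.17 CPM in DE(a), and was lower but still separate at 48 h. MSX1 was at 136 and 136 CPM in APS at 24 h against 19.1 and 26.6 CPM in DE(a), and its level at 48 h was under 10 CPM on both routes. PRTG was at 72.4 and 56.7 CPM in APS at 24 h, and the level in APS-DE(b) is given above. The difference between the 24 h and the 48 h change was not called for HAPLN1 or PRTG (adjusted p of 0.868 and 1.000) or for MSX1 (0.876, edgeR).

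Of the paraxial list 4 genes were called at 24 h (TBX6, MSGN1, FOXC1 and PCDH19), and of the lateral and cardiac list 2 (BMP4 and TBX3). None of them was called at 48 h. Log2 fold changes at 24 h and 48 h were 1.64 and -0.01 for FOXC1, 2.59 and 0.38 for PCDH19, and 2.57 and -0.39 for TBX3. MSGN1 was at 2.65 and 2.84 CPM in APS at 24 h and at 0 CPM in APS-DE(b) and DE(a)-DE(b). TBX6, which specifies paraxial mesoderm, was at 19.1 and 22.3 CPM in APS against 5.76 and 5.54 CPM in DE(a) at 24 h, and at 4.69 and 5.18 CPM against 2.27 and 1.92 CPM at 48 h (adjusted p = 0.0695, edgeR). BMP4 was at 40.0 and 27.5 CPM against 4.57 and 4.28 CPM at 24 h, and at 45.0 and 37.1 CPM against 16.9 and 13.3 CPM at 48 h (adjusted p = 0.0886, edgeR). The difference between the 24 h and the 48 h change was not called for TBX6 or BMP4.

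The 3 adhesion genes overlapped between the routes at 24 h. CDH1 was at 169 and 172 CPM in DE(a) and at 149 and 194 CPM in APS, a log2 fold change of -0.01 (adjusted p = 1.000, edgeR). EPCAM was at 114 and 133 CPM against 130.0 and 136 CPM, and CDH3 was at 166 and 129 CPM against 137 and 150 CPM. The other 3 epithelial genes called at 48 h were lower in APS at 24 h without overlap, with unadjusted p between 0.0756 and 0.107 (edgeR). The share of all genes tested that lay apart at 24 h is not given, and at 48 h it was 35.6%. CLDN7 was at 108 and 86.6 CPM against 75.7 and 61.5 CPM, GRHL2 at 21.3 and 23.2 CPM against 12.4 and 16.3 CPM, and ST14 at 24.8 and 16.2 CPM against 12.7 and 14.3 CPM, with log2 fold changes of -0.52, -0.65 and -0.61. No member of the epithelial list was called at 24 h by edgeR or DESeq2, and the median was -0.21. None had an unadjusted p under 0.05, against 6.75% of all genes tested at 24 h. ZEB1 was also low on both routes at 24 h, at 1.97 and 3.33 CPM in DE(a) and 2.70 and 3.11 CPM in APS.

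The size of the change at 48 h minus that at 24 h was tested as well. Over all genes, 10 were called (0.0559%), and 2 to 13 with a library left out, the fewest without DE(a) replicate 1 at 24 h. With the replicate block 33 were called. CDH1 had a difference of -1.81 (adjusted p = 0.0655, edgeR) and EPCAM of -1.42 (adjusted p = 0.214), so their change was not shown to differ between the times. Among the genes that passed was SAMD4A, an RNA-binding repressor of translation (-2.02, adjusted p = 0.0073, edgeR), which is one of the 84. SAMD4A was at 70.9 and 71.2 CPM against 101 and 153 CPM at 24 h, and at 14.2 and 15.5 CPM against 6.61 and 6.22 CPM at 48 h.

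**Figure D4:**
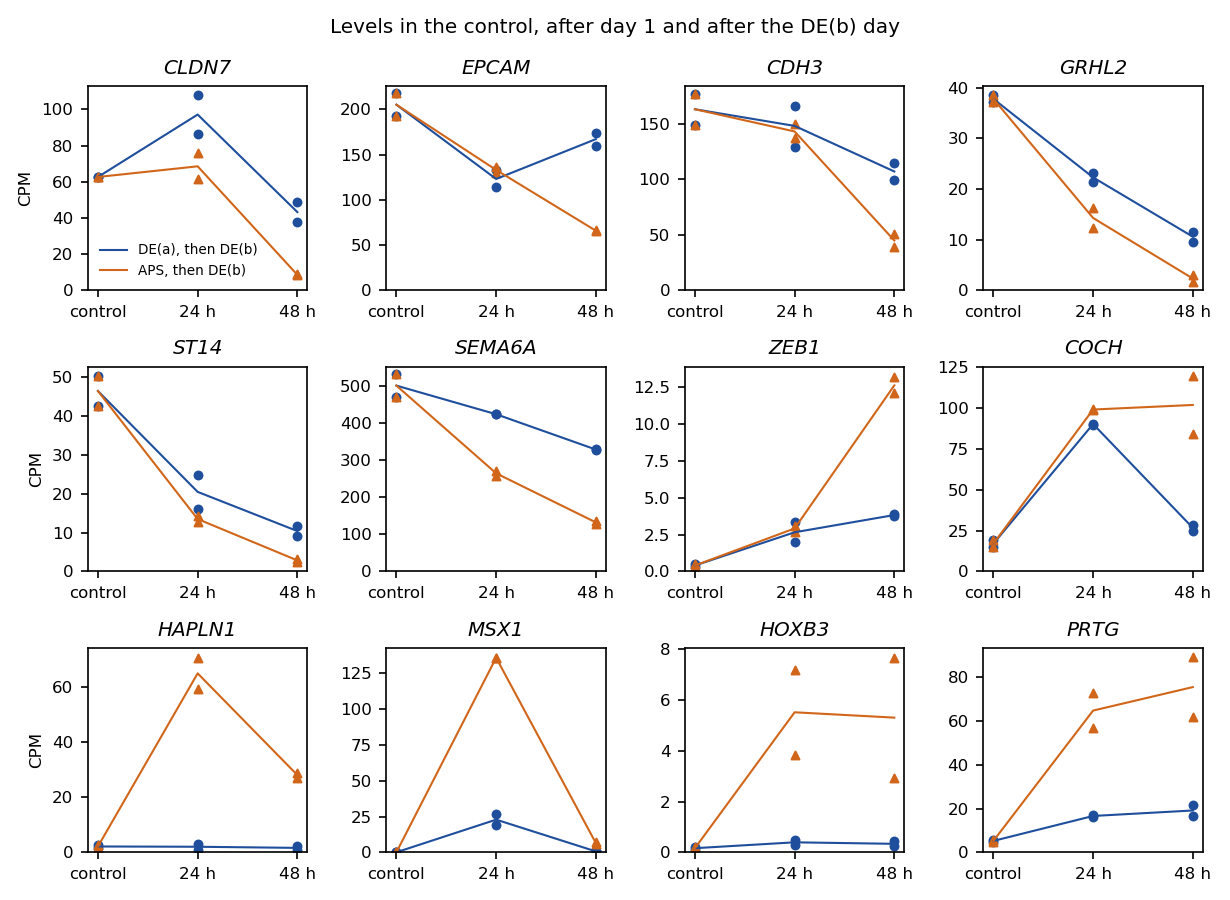
CPM of 12 genes in the control, at 24 h and at 48 h, with 2 libraries a point and lines through the means, for the DE(a) route (circles) and the APS route (triangles). CDH3 and EPCAM are close at 24 h and apart at 48 h, whereas HAPLN1, MSX1 and PRTG are already apart at 24 h.

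Levels in the control were set beside those of both groups. The control mean lay above the DE(a)-DE(b) mean for 37 of the 49 falls and above the APS-DE(b) mean for 46. For the 35 rises, the control mean lay below the APS-DE(b) mean for all 35 and below the DE(a)-DE(b) mean for 29. The genes were chosen by the levels of both groups, so these counts depend in part on that choice. Shares over all genes tested are not given. EPCAM was at 192 and 218 CPM in the control, near its level in DE(a)-DE(b), and CLDN7 was at 62.6 and 62.7 CPM. B3GALT5, at 87.1 and 90.0 CPM, and GLB1L3, at 99.1 and 90.9 CPM, were highest in the control.

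Cells that left the same first days in another medium were compared in the same way. APS-PM against DE(a)-PM gave 10 genes called (0.0559%), all lower, and APS-LM against DE(a)-LM gave 819 (4.58%), of which 264 were higher (1.48%) and 555 lower (3.1%). The count in PM was 0 without APS-PM replicate 2 or DE(a)-PM replicate 1, 2 without APS-PM replicate 1 and 114 without DE(a)-PM replicate 2, and that in LM was 253 without APS-LM replicate 2, 348 without DE(a)-LM replicate 1 and 515 without APS-LM replicate 1. Of the 49 genes lower in APS-DE(b), 5 were also called lower in PM, among them AP1M2, CDH1, EPCAM and SMPDL3B, and 22 in LM. CDH1 was at 128 and 81.1 CPM in DE(a)-PM against 35 and 22.2 CPM in APS-PM, and at 186 and 209 CPM in DE(a)-LM against 47.4 and 46.4 CPM in APS-LM. The log2 fold change of CDH1 was thus -1.82 after DE(b), -1.86 after PM and -2.01 after LM, each with an SE of 0.27. CLDN7, GRHL2, ST14 and MARVELD3 were among the 22 called lower in LM and were not called in PM by edgeR, where their log2 fold changes were -0.83, -1.71, -1.71 and -1.58. In PM, edgeR called 3 of the 20 epithelial genes and DESeq2 called 7, and 14 had an unadjusted p under 0.05, against 4.57% of all genes tested.

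Of the 35 genes higher in APS-DE(b), none was called in PM by edgeR or DESeq2. There, 5 of them had an unadjusted p under 0.05, against 4.57% of all genes tested. In LM, 9 of the 35 were called higher (ASH2L, HAPLN1, HOXB2, HOXB3, ITPR1, LIFR, MSX1, PRTG and WNT5A). DLL3 was at 538 and 739 CPM in DE(a)-PM against 667 and 785 CPM in APS-PM, so both routes reached a high level in that medium. COCH was called in the opposite direction in LM, at 182 and 154 CPM in DE(a)-LM against 57.8 and 42.5 CPM in APS-LM. The change in DE(b) minus that in PM was called for 5 genes (0.0279%) and the change in DE(b) minus that in LM for 177 (0.989%). With DESeq2 these counts were 50 and 433, and with the replicate block 8 and 298. With a library left out, the first ranged from 0, without APS-PM replicate 1 or 2, DE(a)-PM replicate 1 or DE(a)-DE(b) replicate 1, to 35 without DE(a)-PM replicate 2. The second ranged from 52 without DE(a)-DE(b) replicate 2 to 161 without DE(a)-LM replicate 2.

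The MPS and PPS first days were also followed by DE(b) medium. Both held BMP4 at 40 ng/ml, CHIR99021 at 6 µM and bFGF at 20 ng/ml, and they differed in activin A, with 30 ng/ml in MPS and 0 in PPS. Their comparisons share the DE(a)-DE(b) libraries, so levels are given side by side and no overlap was computed. HAPLN1 was at 405 and 279 CPM in MPS-DE(b) and at 813 and 687 CPM in PPS-DE(b). HOXB3 was at 48.3 and 58.1 CPM in MPS-DE(b) and at 81.3 and 72.2 CPM in PPS-DE(b). Among the 12 largest rises, the mean in MPS-DE(b) lay above that in APS-DE(b) for 11, with RNF165 as the exception, and in PPS-DE(b) for 8. Over all 35 rises these numbers were 29 and 23. The genes were chosen by their APS-DE(b) level, and shares over all genes tested are not given.

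Among the 12 largest falls, the mean in MPS-DE(b) lay under that in APS-DE(b) for 11, PROM1 being the exception, but in PPS-DE(b) for 5. Over all 49 falls these numbers were 34 and 15, again without a share over all genes tested. CDH1 was at 19.1 and 13.3 CPM in MPS-DE(b) and at 105 and 94.8 CPM in PPS-DE(b), the latter near DE(a)-DE(b). RASGRF2 was at 7.47 and 6.57 CPM in MPS-DE(b) and at 51.2 and 41.2 CPM in PPS-DE(b), above DE(a)-DE(b). CLDN7 was at 3.21 and 2.60 CPM in MPS-DE(b) and at 9.42 and 11.8 CPM in PPS-DE(b), far below DE(a)-DE(b) in both.

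**Figure D5:**
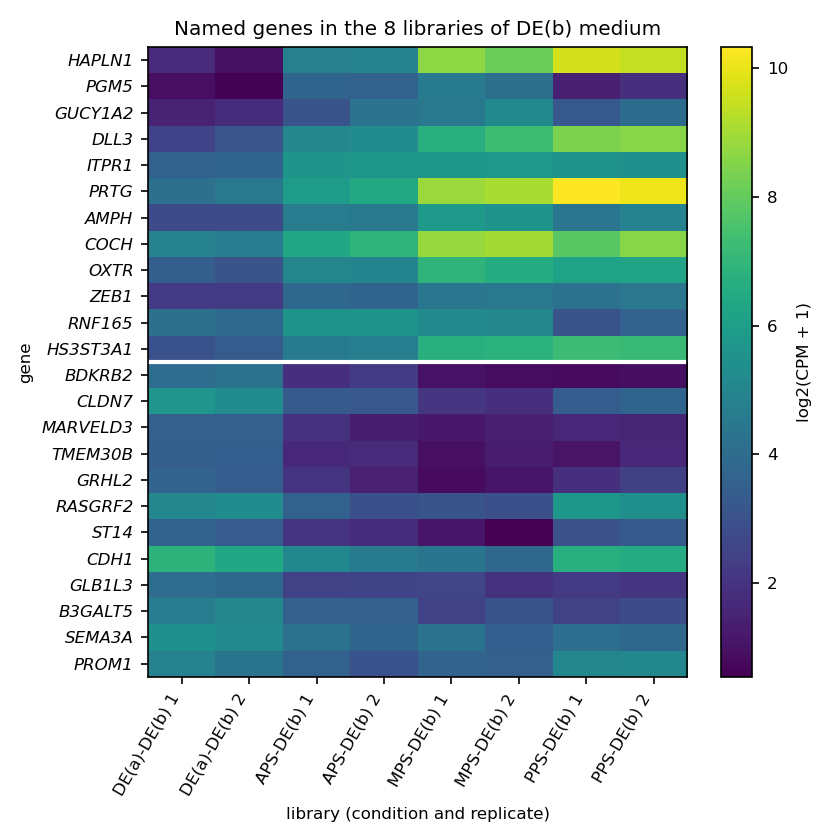
Color gives log2(CPM + 1) of the 12 largest rises (above the white line) and the 12 largest falls (below it) in the 8 libraries that ended in DE(b) medium, each column being 1 library. HAPLN1 and PRTG brighten from DE(a)-DE(b) to PPS-DE(b), and CDH1 is bright in DE(a)-DE(b) and PPS-DE(b) but not in APS-DE(b) or MPS-DE(b).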

How the data were processed

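Poly(A)-selected, stranded libraries of wild-type ESI017 cells were sequenced in pairs of reads by the authors. Per the labels, reads were quantified with Salmon 1.10.2 on GRCh38 and summed to genes in R 4.4.2. The values deposited by the authors are estimated counts, without normalization, so they depend on gene length and on how Salmon shares reads between paralogs. The number of value columns left without a sample was 0. Totals of the 34 libraries ranged from 15522780 to 23439799.

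Rounded counts were fitted with edgeR 4.0.16 under R 4.3.3 (TMM, filterByExpr by condition, 1 mean per condition over 34 libraries, quasi-likelihood tests, Benjamini-Hochberg adjustment, threshold 0.05); 17895 of 37951 genes passed the filter, the common dispersion was 0.0611 and 17 residual degrees of freedom remained. CPM, folds of means and distances were computed in Python 3.11.15 with pandas 2.3.3. Where every library of a group had at most 3 counts, the gene was taken to be at the floor there. Gene positions are those of GENCODE v44, and promoters those of RefSeq.

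Named genes were the 12 largest rises and falls among called genes with at least 10 CPM in a group, and members of the 22 lists that were called or abundant. For the rises and falls, the libraries of both groups also had to lie apart without overlap, which held for every called gene. The lists, and the comparison itself, were chosen with earlier results of these data known. Alternatives were RLE, no filter, a replicate block, DESeq2 1.42.0, voom of limma 3.58.1, fewer libraries, each library left out, and, chosen after seeing the data, summed identifiers and no mitochondrial genes. The steps were tested on simulated data. Some results for single genes are not reported here.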

Additional observations from a re-analysis of the deposited data

Results flagged for a closer look

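For 8 genes with a large change in DE(b), the change from DE(a) to APS differed between day 2 media by a test of the difference itself (edgeR, adjusted over all genes). The genes were named for their change in DE(b), so that part of each difference is not independent.

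Against PM medium, the log2 change in DE(b) was higher by 2.30 for COCH (adjusted p = 0.0226) and by 1.48 for HS3ST3A1 (adjusted p = 0.0327). With a library left out, the number of genes called for this difference ranged from 0 to 35, being 0 without APS-PM replicate 1, APS-PM replicate 2, DE(a)-PM replicate 1 or DE(a)-DE(b) replicate 1 and 35 without DE(a)-PM replicate 2.

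Against LM medium, the log2 change was higher in DE(b) by 3.56 for GUCY1A2, 3.11 for DLL3, 1.84 for AMPH, 3.64 for COCH, 1.84 for OXTR and 1.56 for HS3ST3A1, with adjusted p between 3.38e-05 and 0.0451 (edgeR). OXTR was at 3.25 and 2.77 CPM in DE(a)-LM and at 3.51 and 2.10 CPM in APS-LM, so it was low on both routes there. The change was lower in DE(b) than in LM by -1.70 for SEMA3A (adjusted p = 0.0106) and by -1.86 for PROM1 (adjusted p = 0.0110, edgeR). PROM1 was at 115 and 125 CPM in DE(a)-LM and at 144 and 174 CPM in APS-LM, against the fall described in DE(b).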

How the results depend on the processing

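Of the 84 calls in APS-DE(b) against DE(a)-DE(b), all kept their sign under every setting in which they were tested, but the count moved. It was 609 without the filter on low counts, 246 with DESeq2 and 0 with only the 4 libraries compared, where 1196 genes had an unadjusted p under 0.05 and the smallest adjusted p was 0.089. It was 85 with RLE, 117 with voom, 94 with only the 8 DE(b) libraries (41 of the 84 again), 94 with summed identifiers and 86 without mitochondrial genes. With a library left out, the other library of its group being assumed to vary like the other groups, it was 14 to 38: 38 without APS-DE(b) replicate 1, 14 without APS-DE(b) replicate 2, 21 without DE(a)-DE(b) replicate 1 and 16 without DE(a)-DE(b) replicate 2, the library of the high mitochondrial share. Of the 84, 3 were called in all 4 of these fits, 7 in 3 of them and 43 in none. The ratio of between-group to within-group distance was 1.09 and stayed between 1.06 and 1.09. The labels do not say that a replicate number marks a shared day or batch, although each number has its own deposited table. Deviations of same-numbered libraries correlated at 0.34 between APS-DE(b) and DE(a)-DE(b). Over 136 pairs of conditions the median was 0.16, with 96 pairs over 0.1 and 3 under -0.1. The rule for pairing, that every pair be over 0.1, was not met. Missing that rule does not show that same-numbered libraries shared no effect, and the main fit held no replicate term. The replicate block gave 138 calls in DE(b), 33 for the 48 h minus 24 h difference, 8 for DE(b) minus PM and 298 for DE(b) minus LM.

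For the other comparisons, in the order 24 h, PM, LM, DE(b) minus 24 h, DE(b) minus PM and DE(b) minus LM, the counts were 570, 444, 1517, 422, 326 and 858 without the filter. With DESeq2 they were 263, 95, 80, 50 and 433, LM aside, which moved less. With a library left out the ranges were 38 to 93 at 24 h, 0 to 114 in PM and 253 to 627 in LM, and for the differences 2 to 13, 0 to 35 and 52 to 161. The PM calls in particular went to 0 without APS-PM replicate 2 or DE(a)-PM replicate 1.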
